A study of Mus musculus with 20 samples.

Results

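The homologous recombination genes Brca1, Brca2, Palb2, Rad51b, Rad51c, Rad52, Rad54l, Xrcc2 and Xrcc3, were followed in the bone marrow and the kidney of mice given oxaliplatin, a platinum chemotherapy drug that crosslinks DNA. They were taken by gene symbol from the count tables of both tissues, where they made up 9 of 55486 genes. The animals were C57BL/6 mice, 10 weeks old at the start, which received 10 mg/kg oxaliplatin intraperitoneally in 5% dextrose, or 5% dextrose alone as vehicle, for 8 weeks, with no other genotype or agent in any group. RNA was sequenced from 5 vehicle and 5 oxaliplatin libraries of each tissue, 20 in all, each labelled as its own biological replicate. Whole marrow of the hind limb long bones was collected 6 days past the final dose, so that each library is a mixture of all marrow cells at that time and each kidney library a mixture of renal cells. The methods state that male and female mice were used, whereas Y-linked genes were expressed in all 20 libraries. Total counts ranged from 30660153 to 41140527 in bone marrow and from 24393007 to 30925430 in kidney. Levels are given as CPM, the usual count share in which library sizes carry edgeR's TMM scaling factors, and at these depths 3 counts corresponded to 0.0668 to 0.0975 CPM in marrow and 0.0900 to 0.130 CPM in kidney, limits that cover counting error only.

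Homologous recombination repairs breaks through both DNA strands, and the gaps left when interstrand crosslinks are removed, by copying the intact sister chromatid, and it is therefore mainly a pathway of cells in S and G2 phase. BRCA1 acts early, at the resection of the broken end, and through PALB2 recruits BRCA2 to the single-stranded DNA laid bare there. RAD51B, RAD51C, XRCC2 and XRCC3 are related proteins that work together in complexes before strand invasion, RAD54L remodels DNA during it, and RAD52 anneals complementary strands. Marrow renews blood through constant division of its progenitors, while most cells of the adult kidney divide rarely.

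The labels of the tissues matched their markers. The neutrophil granule gene Ngp averaged 5298 CPM in marrow, where the proximal tubule transporter gene Slc5a2, the most abundant of 6 proximal tubule markers there, averaged 1.90 CPM. In kidney the phosphate transporter gene Slc34a1 averaged 7768 CPM, and 5 of 6 granulocyte progenitor markers, among them Mpo and Elane, had at most 3 counts in every library. As a sign of exposure to the drug, the p53 target gene Cdkn1a, which encodes the cell-cycle inhibitor p21, rose from 3.04 ± 1.15 to 115 ± 31.8 CPM in kidney (SD, n = 5 per group) and was also higher in all 5 treated marrow libraries, with a log2 fold change of 4.37 (SE 0.18). Treated marrow libraries 3 and 4 stood apart from the others in mature neutrophil genes. Their 8 neutrophil markers summed to 7069 and 9724 CPM, against 20670 to 26680 CPM in the other treated libraries and 17967 to 22019 CPM with vehicle, and the main marrow results are therefore also given without them.

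In vehicle-treated mice all 9 genes had counts in every library of both tissues. To compare genes, counts were divided by the length of all exons of a gene and scaled over all 20 libraries together. In vehicle marrow Brca1 was highest, at 12.8 ± 0.927 CPM per kilobase (SD, n = 5), followed by Rad54l at 7.23 ± 0.385, Brca2 at 7.02 ± 0.802, Xrcc3 at 5.87 ± 0.833, Rad52 at 3.14 ± 0.307, Palb2 at 3.08 ± 0.136, Xrcc2 at 2.38 ± 0.295, Rad51b at 2.36 ± 0.319 and Rad51c at 1.5 ± 0.112 CPM per kilobase. Of neighbours in that order, the libraries of Rad54l and Brca2, of Brca2 and Xrcc3, of Rad52 and Palb2, and of Xrcc2 and Rad51b overlapped. In vehicle kidney the order was led by Xrcc3, at 2.37 ± 0.395 CPM per kilobase, Rad52 at 1.46 ± 0.184 and Xrcc2 at 0.977 ± 0.115, whose libraries did not overlap with each other or with the next gene, Rad51c at 0.479 ± 0.0970. Brca2 at 0.377 ± 0.125, Palb2 at 0.280 ± 0.0720, Rad54l at 0.148 ± 0.0448, Brca1 at 0.106 ± 0.0395 and Rad51b at 0.0878 ± 0.0516 CPM per kilobase followed, and each of these overlapped with its neighbours. Brca1, first of the 9 in marrow, was thus 8th in kidney.

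**Figure D1:**
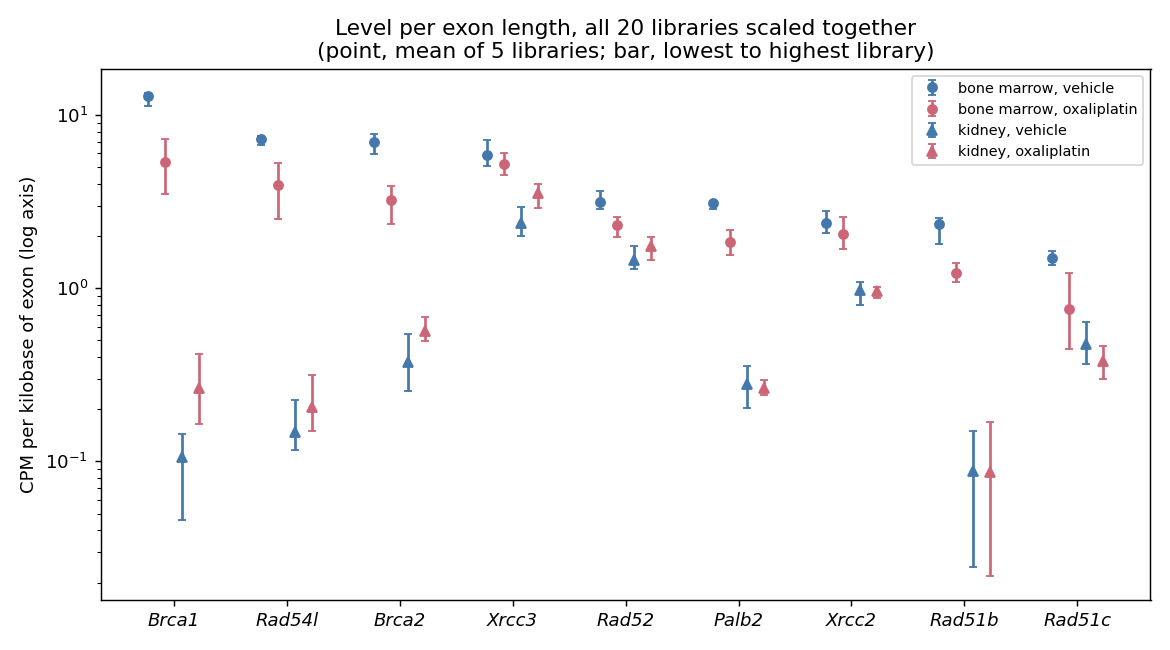
Level of each gene in CPM per kilobase of exon (log axis) in the 4 groups, with points at the mean of 5 libraries and bars from the lowest to the highest library. Circles (marrow) lie above triangles (kidney) for every gene with vehicle, by a wide gap for Brca1, Rad54l and Rad51b and a narrow one for Rad52, Xrcc2 and Xrcc3.

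All 9 genes were lower in vehicle kidney than in vehicle marrow in the fit across the 20 libraries, against 38.3% of the 24321 genes tested that were called lower. The difference was largest for Brca1, 121-fold (log2 difference -6.92, SE 0.26, adjusted p = 5.2e-17), then Rad54l (48.4-fold) and Rad51b (26.6-fold). These folds rest on few reads per vehicle kidney library, which limits their precision. The counts were 9 to 28 for Brca1, 18 to 40 for Rad54l and 2 to 13 for Rad51b. Brca2 was 18.5-fold and Palb2 11-fold lower in kidney. Rad51c (3.13-fold), Xrcc3 (2.47-fold), Xrcc2 (2.44-fold) and Rad52 (2.14-fold) differed least between the tissues. RNA was extracted by different protocols in kidney and marrow, so that tissue and extraction cannot be told apart. The 22 S phase and 18 mitosis genes used as a measure of dividing cells were likewise all called lower in kidney, with median log2 differences of -3.96 and -7.26, against -0.12 over all genes.

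To see whether the genes shared sequence features, the 250 bases before the annotated start were taken from RefSeq (GRCm38.p6) for the 8 genes with an entry, and searched on both strands for 4 motifs. These were the E2F site of genes of S phase (TTTCCCGC, TTTCGCGC, TTTGCCGC or TTTGGCGC), the CHR element of mitotic genes (TTTGAA), the CCAAT box, and the cyclic AMP response element (TGACGTCA), none of which contains another. The E2F letters occurred in 1 of the 8 windows, that of Brca2, against 1.91% of 27025 windows of all genes. The CHR letters occurred in none of the 8, against 16.3% of windows. CCAAT stood in the windows of Brca1, Rad51b, Rad54l and Xrcc3, against 34.5% of windows, and TGACGTCA in those of Brca2 and Rad51c, against 1.62%. The window of Xrcc3 held 6 CCAAT matches, a number reached by 17 of the 27025 windows (0.0629%), a count that was looked at after the sequence had been seen. The windows of 4 genes are shown, the 3 with the highest vehicle level in marrow and Xrcc3 for its repeated motif. They read 5′ to 3′ on the strand of the gene and end at the base before its start, with the motif letters of either strand in capitals (ATTGG is CCAAT on the other strand), at chr11:101551956-101552205 (minus strand) for Brca1, chr5:150522371-150522620 (plus strand) for Brca2, chr4:116123691-116123940 (minus strand) for Rad54l and chr12:111813880-111814129 (minus strand) for Xrcc3.
Brca1: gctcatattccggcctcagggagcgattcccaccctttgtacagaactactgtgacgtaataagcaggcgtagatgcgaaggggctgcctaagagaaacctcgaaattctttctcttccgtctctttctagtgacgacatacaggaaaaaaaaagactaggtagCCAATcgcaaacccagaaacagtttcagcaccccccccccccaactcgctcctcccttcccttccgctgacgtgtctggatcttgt
Brca2: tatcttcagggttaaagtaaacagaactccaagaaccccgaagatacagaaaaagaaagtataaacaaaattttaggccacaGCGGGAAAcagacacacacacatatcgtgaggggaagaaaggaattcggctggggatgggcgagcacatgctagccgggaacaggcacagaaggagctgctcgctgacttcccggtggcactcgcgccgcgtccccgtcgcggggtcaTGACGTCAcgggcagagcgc
Rad54l: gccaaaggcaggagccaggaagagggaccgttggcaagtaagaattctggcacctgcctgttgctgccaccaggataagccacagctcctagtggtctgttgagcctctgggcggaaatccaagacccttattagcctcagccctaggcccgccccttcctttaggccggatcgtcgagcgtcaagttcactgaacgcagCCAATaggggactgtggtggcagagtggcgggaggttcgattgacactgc
Xrcc3: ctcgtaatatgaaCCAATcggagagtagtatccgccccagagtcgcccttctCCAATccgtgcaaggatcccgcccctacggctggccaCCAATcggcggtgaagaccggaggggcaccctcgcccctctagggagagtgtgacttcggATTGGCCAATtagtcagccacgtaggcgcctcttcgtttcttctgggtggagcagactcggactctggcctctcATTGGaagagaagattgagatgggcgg
A match is a run of letters and says nothing of binding. The capitals lie 86 bases before the start in Brca1 (CCAAT), 168 (E2F letters, on the opposite strand) and 20 (TGACGTCA) bases in Brca2, 50 bases in Rad54l, and between 237 and 27 bases in Xrcc3.

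In bone marrow, oxaliplatin lowered 6 of the 9 genes by 1.73- to 2.50-fold. A gene counted as called when edgeR's quasi-likelihood test gave a p under 0.05, adjusted by Benjamini-Hochberg across the 22363 genes tested, and the change went beyond 1.5-fold. Of all genes tested, 23.3% were called in either direction and 11.8% as lower. None of the 9 was called higher, 7 were lower at an adjusted p under 0.05 without regard to fold (16.8% of all genes), and in the same number every treated library lay below every vehicle library (13.5% of all genes). The median log2 fold change of the 9 was -0.94, against -0.04 over all genes. In bulk marrow, fewer cells that express a gene and less of its RNA per cell cannot be told apart.

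Among the genes that act first at the break, Brca1 (chr11:101488764-101551955) measured 132, 133, 135, 129 and 110 CPM in the vehicle marrow libraries and 35.0, 54.5, 66.6, 51.7 and 47.9 CPM in the treated ones. The groups did not overlap, although vehicle library 5 was low among its group. The mean fell from 128 ± 10.2 to 51.1 ± 11.4 CPM (log2 fold change -1.32, SE 0.14, adjusted p = 1.5e-05), the largest fall of the 9. Brca2 (chr5:150522630-150570329) measured 123, 118, 121, 104 and 93.3 CPM with vehicle and 37.4, 51.1, 56.7, 50.6 and 51.5 CPM with oxaliplatin. All 5 treated libraries were below all vehicle libraries, with treated library 1 lowest as it was for Brca1, and the log2 fold change was -1.18 (SE 0.12, adjusted p = 8.9e-06). Palb2 (chr7:122107262-122132985), the bridge between the products of these genes, measured 24.4, 27.2, 27.6, 27.0 and 26.4 CPM with vehicle and 14.3, 17.8, 16.4, 15.0 and 13.2 CPM with oxaliplatin. Its groups were also separate, and its spread within a group was narrow: the mean fell from 26.5 ± 1.28 to 15.3 ± 1.80 CPM (log2 fold change -0.79, SE 0.10, adjusted p = 6.2e-05).

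The 4 related genes Rad51b, Rad51c, Xrcc2 and Xrcc3 divided into a pair that fell and a pair that did not pass the test. Rad51b (chr12:79297282-79814690) measured 11, 11.2, 11.1, 8.09 and 10.4 CPM with vehicle and 5.27, 4.61, 5.62, 5.27 and 5.12 CPM with oxaliplatin. Even the low vehicle library 4 lay above all treated libraries (log2 fold change -1.0, SE 0.14, adjusted p = 9.7e-05). Rad51c (chr11:87376645-87404954), which binds both RAD51B and XRCC3, measured 8.32, 6.98, 7.72, 8.32 and 7.18 CPM with vehicle and 2.28, 3.20, 5.73, 3.83 and 3.59 CPM with oxaliplatin. The groups were separate and the treated libraries spread widely around their mean of 3.72 ± 1.27 CPM (log2 fold change -1.05, SE 0.21, adjusted p = 0.0022). Xrcc2 (chr5:25689812-25705825) measured 16.8, 15.4, 13, 15.2 and 12.4 CPM with vehicle and 10.8, 12.7, 14.5, 12.2 and 10.2 CPM with oxaliplatin. Its groups overlapped, with 3 of 5 treated libraries below the lowest vehicle library, and the log2 difference of -0.27 (SE 0.13) had an adjusted p of 0.134. Xrcc3 (chr12:111803192-111813873) measured 23.0, 16.4, 19.4, 17.4 and 18.3 CPM with vehicle and 16.0, 13.9, 13.2, 18.2 and 19.1 CPM with oxaliplatin, again with overlap (log2 difference -0.23, SE 0.13, adjusted p = 0.216). For Xrcc2 the adjusted p was 0.0475 without treated library 3, at a log2 difference of -0.34.

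Of the genes that act in strand invasion and annealing, Rad54l (chr4:116094264-116123690) measured 67.6, 68.6, 66.4, 64.1 and 59.5 CPM with vehicle and 22.8, 33.4, 43.8, 40.7 and 29.4 CPM with oxaliplatin. The groups were separate and the log2 fold change was -0.94 (SE 0.15, adjusted p = 3.5e-04). Rad54l shares 1184 bases, 15.4% of its exon length, with exons of Lrrc41 on the opposite strand, and the strand setting of the counting is not given in the sources used here. Lrrc41 itself averaged 32.6 CPM in marrow and differed by 0.06 on the log2 scale (SE 0.10, adjusted p = 0.72). In kidney Lrrc41 averaged 34.4 CPM, against 0.991 and 1.39 CPM for Rad54l with vehicle and oxaliplatin, and differed by -0.25 (adjusted p = 0.018), and the part of shared reads in the kidney values of Rad54l was not tested. Rad52 (chr6:119902698-119922828) measured 19.2, 24.6, 19.9, 21.5 and 20.5 CPM with vehicle and 16.7, 16.8, 12.2, 13.1 and 16.6 CPM with oxaliplatin. All treated libraries were below all vehicle libraries, but the fall was smaller than the 1.5-fold threshold (log2 fold change -0.49, SE 0.12, adjusted p = 0.0077).

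**Figure D2:**
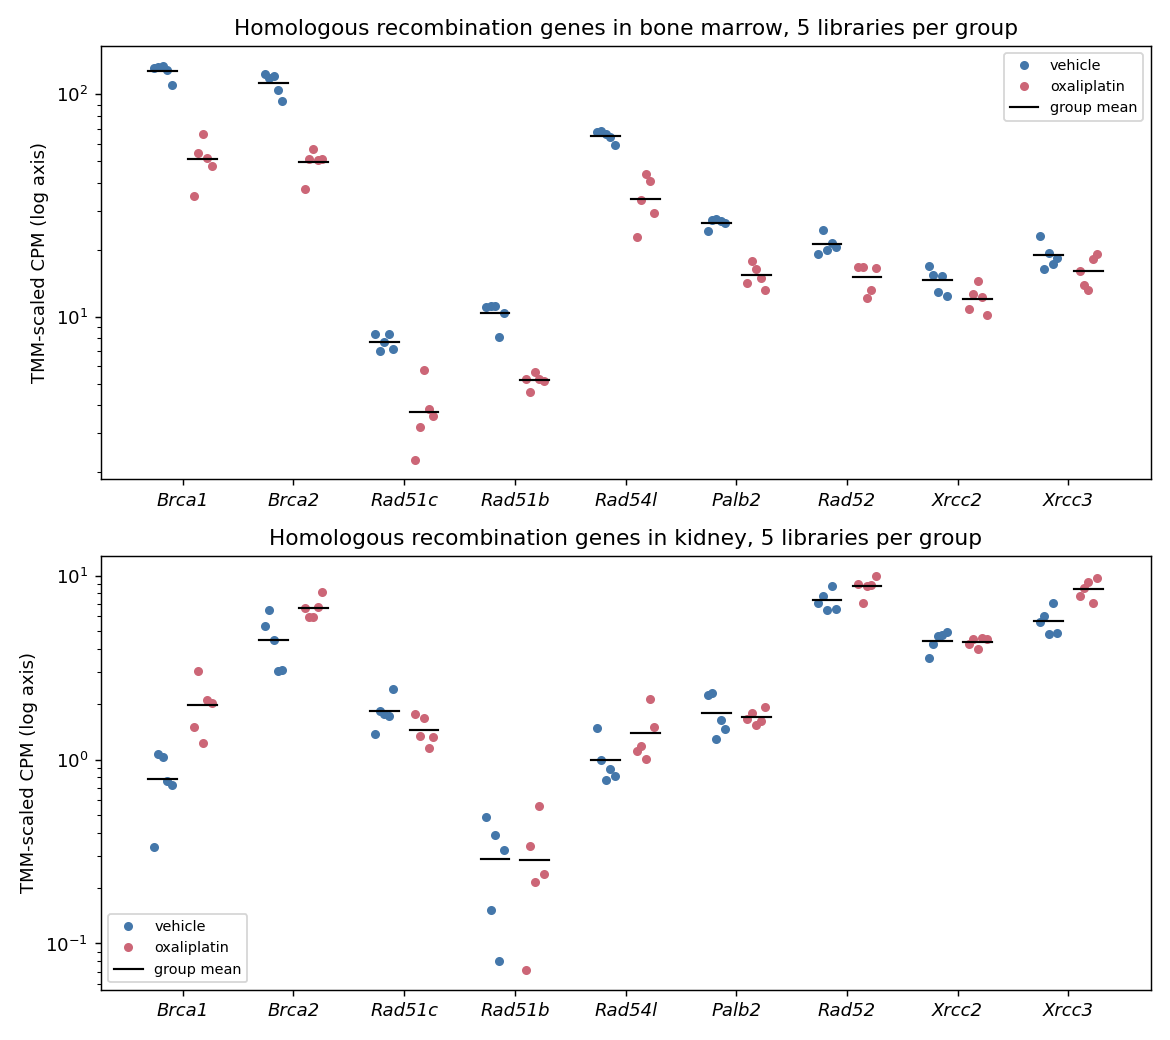
TMM-scaled CPM of the 9 genes in each library (log axis), vehicle in blue and oxaliplatin in red, with black lines at group means, for bone marrow (top) and kidney (bottom). In marrow the groups are separate for all but Xrcc2 and Xrcc3, whereas in kidney they are separate for Brca1 alone.

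Leaving out treated marrow libraries 3 and 4 left 6 of the 9 genes called lower, with log2 fold changes of -1.48 for Brca1, -1.26 for Brca2, -1.35 for Rad51c, -1.19 for Rad54l, -1.05 for Rad51b and -0.81 for Palb2. Xrcc2 then reached an adjusted p of 0.0474 at -0.38, under the fold threshold. The count of called genes was also 6 with each library left out in turn.

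Most of the listed genes of dividing cells, of erythroid cells and of B lineage progenitors were also called lower in marrow. Of 22 S phase genes 16 were called lower and 0 higher (median log2 fold change -0.82), and their summed level was 4315, 4329, 4558, 4991 and 3667 CPM with vehicle and 1642, 2407, 3804, 2610 and 2035 CPM with oxaliplatin. Rrm2, which encodes a ribonucleotide reductase subunit and was the most abundant of them, fell from 521 to 268 CPM, and the largest fall was that of the replication licensing gene Cdc6 (log2 fold change -1.60). Of 18 mitosis genes 15 were called lower (median -0.87), with Mki67, the gene of the proliferation marker Ki-67, both the most abundant and the most changed (log2 fold change -1.53), and their sum was 5685 to 7111 CPM with vehicle and 2330 to 3751 CPM with oxaliplatin. Early erythroid markers were called lower in 7 of 8 cases, late erythroid markers in 8 of 8 and B lineage progenitor markers in 8 of 11, with median log2 fold changes of -1.10, -2.75 and -2.24. The early erythroid sum was 2164, 2367, 2594, 2665 and 1968 CPM with vehicle and 706, 1144, 1738, 1115 and 793 CPM with oxaliplatin, the B lineage sum 354 to 634 CPM against 89.5 to 172 CPM, and the late erythroid sum 25266 to 43428 CPM against 3474 to 8130 CPM. Their most abundant genes, Tfrc, Hba-a1 and Ebf1, fell by 1.39, 2.64 and 1.01 on the log2 scale. None of the markers of these 5 lists was at 3 or fewer counts in every marrow library. The part of these cells in the fall of the recombination genes was not tested.

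Granulocyte progenitor markers (0 of 6 called), mature neutrophil markers (0 of 8) and pan-leukocyte markers (0 of 4) had median log2 differences of 0.02, -0.24 and -0.07. Megakaryocyte markers were called higher in 5 of 6 cases (Ppbp, the most abundant, log2 fold change 0.82), macrophage markers in 3 of 6 (C1qa, 1.37) and endothelial markers in 2 of 4 (Emcn, 1.14), and 1 of 6 T cell markers, Cd4, was called lower (-1.47), while the median log2 difference of the T cell list was 0.26. Skeletal muscle genes were called higher in 5 of 6 cases with no list gene separating the groups, and their sum was 28.3, 9.75, 103, 11.2 and 97.0 CPM with vehicle and 373, 314, 779, 43.6 and 353 CPM with oxaliplatin, with Myh4 the most abundant.

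Measured against the S phase genes of its own library, Brca1 was the gene whose level still separated the marrow groups in the lower direction. Its log2 CPM stood 0.07 ± 0.09 above the mean of the 22 S phase genes with vehicle and 0.44 ± 0.16 below it with oxaliplatin (-0.44), a relative difference of -0.51. Brca2 (-0.35), Rad51c (-0.26), Rad51b (-0.15), Rad54l (-0.14) and Palb2 (0.04) had relative differences in which the groups overlapped, as did Rad52 (0.34), Xrcc2 (0.56) and Xrcc3 (0.60). Against the 18 mitosis genes the relative difference of Brca1 was -0.41, again with separate groups, and Xrcc2 separated them in the higher direction (0.66). These differences are descriptions over 5 libraries a group and were given no test.

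**Figure D3:**
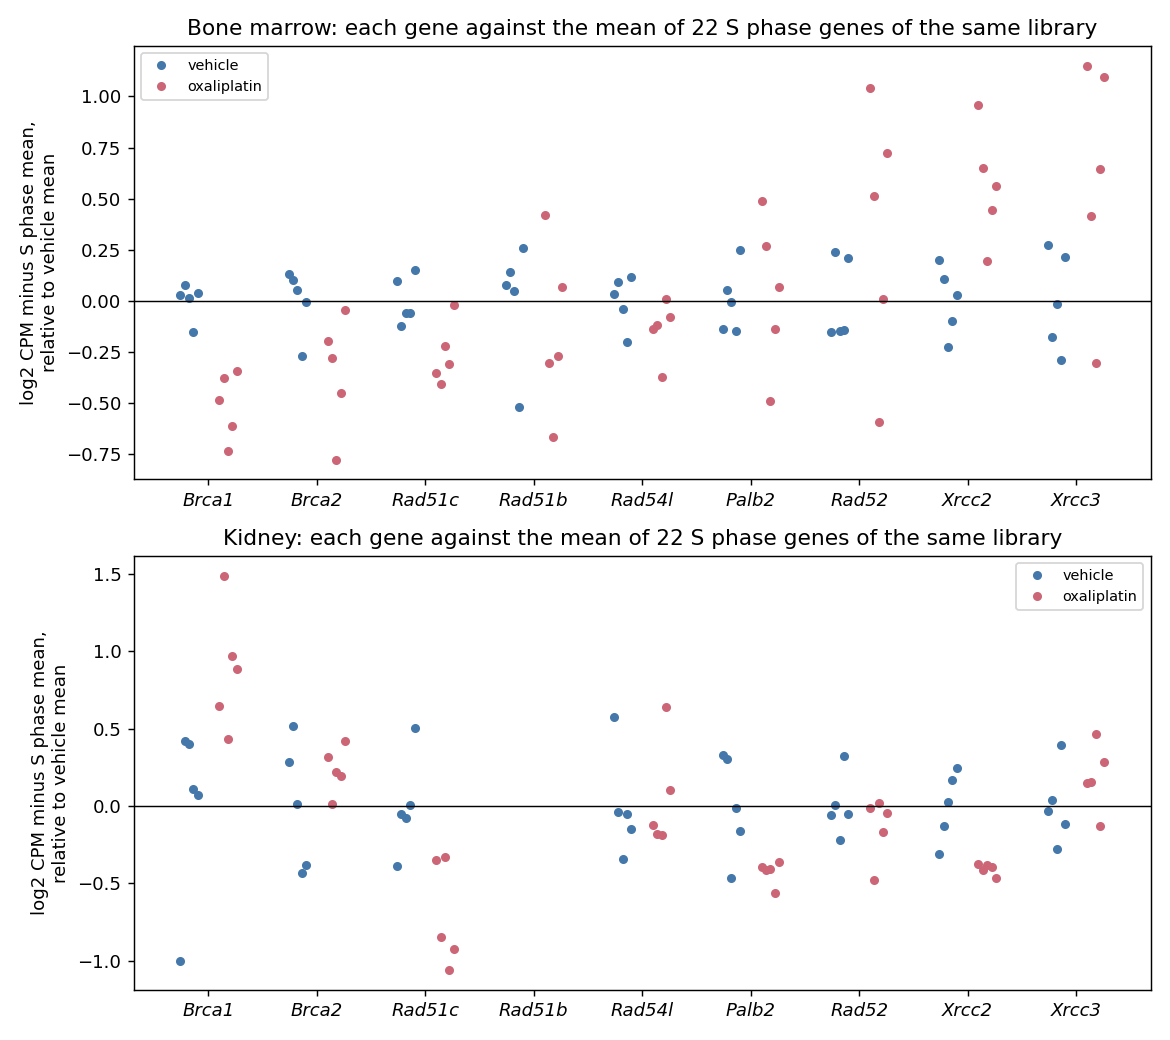
Log2 CPM of each gene minus the mean log2 CPM of 22 S phase genes in the same library, drawn relative to the vehicle mean (0), for bone marrow (top) and kidney (bottom, without Rad51b), vehicle in blue and oxaliplatin in red. In marrow all treated points of Brca1 lie below its vehicle points, and in kidney all lie above them.

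In kidney, 1 of the 9 genes was called, Brca1, and it moved the other way. The test covered 8 genes, since Rad51b had 2 to 16 counts per library and did not pass the filter on low counts. Of the 19293 genes tested in kidney, 11.5% were called and 7.68% were called higher. At an adjusted p under 0.05 without regard to fold, Brca1, Brca2 and Xrcc3 were higher (14.4% of all genes), and Brca1 was the one gene with every treated library above every vehicle library (9.69% of all genes). Brca1 measured 0.336, 1.07, 1.04, 0.765 and 0.729 CPM with vehicle and 1.51, 3.03, 1.22, 2.11 and 2.04 CPM with oxaliplatin, which are 9 to 28 reads against 34 to 90. The groups were close but separate, and the log2 fold change was 1.34 (SE 0.31, adjusted p = 0.0037). With any library left out it lay between 1.13 and 1.47.

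Xrcc3 and Brca2 rose by 1.49-fold each, just under the threshold. Xrcc3 measured 5.56, 6.06, 4.79, 7.08 and 4.86 CPM with vehicle and 7.79, 8.58, 9.24, 7.05 and 9.69 CPM with oxaliplatin. The groups overlapped by the lowest treated and the highest vehicle library, and the log2 fold change was 0.58 (SE 0.14, adjusted p = 0.0042). Brca2 measured 5.30, 6.48, 4.49, 3.02 and 3.08 CPM with vehicle and 6.68, 5.93, 5.93, 6.77 and 8.16 CPM with oxaliplatin. Here 3 of 5 treated libraries exceeded all vehicle libraries (log2 fold change 0.58, SE 0.19, adjusted p = 0.0305), and the adjusted p was 0.0595, 0.0798 and 0.0817 without vehicle library 3, 4 or 5 and 0.0730 without treated library 5. Because both genes sat at the threshold, the number of called genes was 2 or 3 without vehicle library 1, 2 or 4 or treated library 1, 2, 3 or 4.

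The other kidney differences did not pass the test. Rad52 averaged 7.32 ± 0.924 CPM with vehicle and 8.75 ± 1.02 CPM with oxaliplatin, with 4 of 5 treated libraries above all vehicle libraries (log2 difference 0.26, adjusted p = 0.124), and with libraries scaled by their size alone its log2 difference of 0.39 had an adjusted p of 0.0329, under the fold threshold. Rad54l averaged 0.991 ± 0.292 and 1.39 ± 0.459 CPM (0.48, adjusted p = 0.207), and Rad51c 1.83 ± 0.379 and 1.45 ± 0.258 CPM (-0.33, adjusted p = 0.268). Palb2 (-0.07) and Xrcc2 (-0.02) differed least, and the sign of both turned when libraries were scaled by their size alone. Rad51b measured 0.0805 to 0.485 CPM with vehicle and 0.0718 to 0.561 CPM with oxaliplatin, with means of 0.286 ± 0.167 and 0.285 ± 0.181 CPM. It did not pass the filter on low counts, and with no filter beyond 1 count its log2 difference was -0.0068 (edgeR quasi-likelihood test, adjusted p = 0.995).

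**Figure D4:**
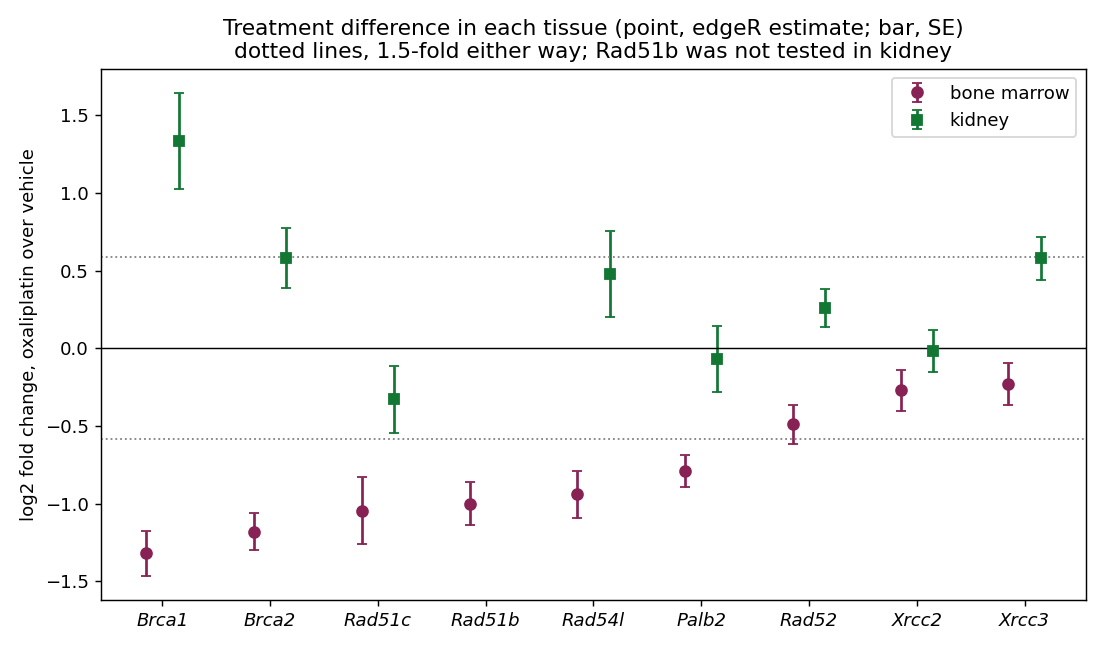
Log2 fold change of oxaliplatin over vehicle with its SE, for bone marrow (circles) and kidney (squares), genes ordered by the marrow value, with dotted lines at 1.5-fold either way. Brca1 is lowest in marrow (-1.32) and highest in kidney (1.34), and Xrcc3 and Brca2 lie on the upper line in kidney.

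Some genes of dividing cells, more of the mitosis than of the S phase list, were called higher in the treated kidneys as well. Of 22 S phase genes 6 were called higher and 0 lower (median log2 fold change 0.24), led by Cdc6 (1.46, from 0.320 to 0.894 CPM), while Pcna, the most abundant, differed by 0.09 (adjusted p = 0.41). Of 16 mitosis genes tested 11 were called higher (median 1.08), among them Mki67 (1.63, from 3.22 to 10.0 CPM) and Top2a (1.74), and the sum over the list was 16.4 to 25.8 CPM with vehicle and 33.7 to 54.4 CPM with oxaliplatin, without overlap. Relative to the S phase genes of the same library, Brca1 was 0.89 higher with oxaliplatin on the log2 scale with separate groups, and relative to the mitosis genes 0.30 higher with overlap. Xrcc2 was lower by both measures with separate groups (-0.41 against S phase and -0.99 against mitosis genes), as were Palb2 (-1.01), Rad51c (-1.29) and Rad52 (-0.72) against the mitosis genes. The part of dividing cells in the rise of Brca1 was not tested. Of 5 injury markers of the tubule tested 2 were called higher (Spp1, the most abundant, 0.93, and Lcn2, 2.06), of 4 podocyte markers 3 and of 4 endothelial markers 2 (Cdh5, 0.99), while 2 of 6 proximal tubule markers (Slc22a6, -1.0), 4 of 6 macrophage markers (Adgre1, -1.07) and 2 of 4 leukocyte markers (Cd52, -1.02) were called lower. The loop and distal tubule list had 0 of 4 called (Umod, 0.20) and the collecting duct list 1 of 3 tested, called higher (Slc4a1, 0.69). Slc4a1 is also on the late erythroid list, and 0 collecting duct genes separated the groups. The late erythroid sum in kidney was 290 to 409 CPM with vehicle and 144 to 649 CPM with oxaliplatin. Which cells gave the Slc4a1 reads was not tested.

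The difference between the tissues was tested as the interaction of tissue and treatment over all 20 libraries, taken as independent. Whether kidney and marrow libraries of one number came from the same mouse is not given in the sources used here. Their deviations from the group means correlated with r from -0.09 to 0.05 with vehicle and from -0.08 to 0.21 with oxaliplatin, and with the number as a block the count of called genes was also 6. The treatment difference was called higher in kidney than in marrow for 6 of the 9 genes, against 10.8% of 24321 genes, and lower for 0. Brca1 had the largest interaction, 2.60 on the log2 scale (SE 0.33, adjusted p = 3.6e-06), followed by Brca2 at 1.70 (SE 0.24, adjusted p = 1.1e-05) and Rad54l at 1.35 (SE 0.30, adjusted p = 0.0017). Xrcc3 (0.75, adjusted p = 0.0050), Rad52 (0.69, adjusted p = 0.0028) and Palb2 (0.66, adjusted p = 0.019) had smaller ones. With no filter beyond 1 count Palb2 did not pass, at 0.64 with an adjusted p of 0.0522 in the same edgeR test. Rad51b (0.94, SE 0.49), Rad51c (0.65, SE 0.31) and Xrcc2 (0.19, SE 0.19) did not pass, with adjusted p of 0.156, 0.126 and 0.498. For Xrcc3 and Rad52, each tissue alone showed a difference below 1.5-fold, with opposite signs. Rad51c passed at 0.0166 without treated marrow library 3, with an interaction of 0.89, and at 0.0091 without treated marrow libraries 3 and 4, with an interaction of 1.03.

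The wider recombination pathway was described with 45 further genes. In marrow 17 were called lower, against 11.8% of all genes tested, and 1 higher, with a median log2 fold change of -0.42. The largest falls were those of Bard1, the partner of BRCA1 in its ubiquitin ligase (-1.18, from 87.5 to 38.7 CPM), Tonsl (-1.09), which with the product of Mms22l (-0.91) acts at stalled replication forks, Rad54b (-1.03), the relative of Rad54l, and Rmi2 (-0.92), a subunit of the BLM complex that dissolves joined chromatids. Zswim7, whose product pairs with that of Swsap1, was called higher, at 2.27 CPM with vehicle and 4.14 CPM with oxaliplatin (0.87, adjusted p = 0.0028). The most abundant of the 45 genes in marrow, Rpa1, a subunit of the protein that coats single-stranded DNA, went from 142 to 102 CPM with an adjusted p of 0.051. In kidney 38 of the 45 passed the filter, of which 4 were called higher and 1 lower, with a median of 0.02, where 11.5% of all genes tested were called in either direction and 7.68% higher. The end resection nuclease gene Exo1 (1.71), the helicase gene Blm (1.06) and Bard1 (0.95) were among the higher ones, and Zswim7 was lower (-0.64, from 13.6 to 8.74 CPM). With the expression of Y-linked genes as a covariate Zswim7 was under the fold threshold at -0.53 (adjusted p = 0.0017), as it was at -0.57 without vehicle library 4 and at -0.50 with libraries scaled by their size alone, and Bard1 had an adjusted p of 0.0526. Bard1 thus followed Brca1 down in marrow and up in kidney, with an interaction of 2.06 (SE 0.28, adjusted p = 7.5e-06). Blm had the same signs, at -0.77 in marrow (adjusted p = 4.2e-04), with an interaction of 1.77 (SE 0.33, adjusted p = 2.9e-04). Zswim7 had the opposite signs, with an interaction of -1.56 (SE 0.20, adjusted p = 4.1e-06). Over the 45 genes the interaction was called higher for 17 and lower for 1. It was also called higher for 16 of 22 S phase genes and 18 of 18 mitosis genes.

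End joining, which religates broken ends without a template, was represented by 19 genes. They included genes of the microhomology-mediated route and genes that hold back end resection. In marrow 5 were called lower and 0 higher, with a median log2 fold change of -0.24. The largest falls were those of Polq, the polymerase of the microhomology-mediated route (-1.05, from 93.8 to 45.2 CPM), Shld1 of the shieldin complex (-1.03) and the polymerase gene Polm (-0.86). Parp1, the most abundant, measured 140 and 143 CPM on average (log2 difference 0.03, adjusted p = 0.93). In kidney 0 of the 19 were called, 2 were higher and 2 lower at an adjusted p under 0.05 without regard to fold, and the median was -0.05. Targets of p53, by contrast, were called higher in 12 of 18 cases in each tissue, with medians of 0.84 in marrow and 1.07 in kidney. The largest rise was that of Eda2r in marrow (4.99) and of Cdkn1a in kidney (5.25), while Btg2, the most abundant target in marrow, was called lower there (-1.48) and Ccng1, the most abundant in kidney, was called higher (1.21).

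**Figure D5:**
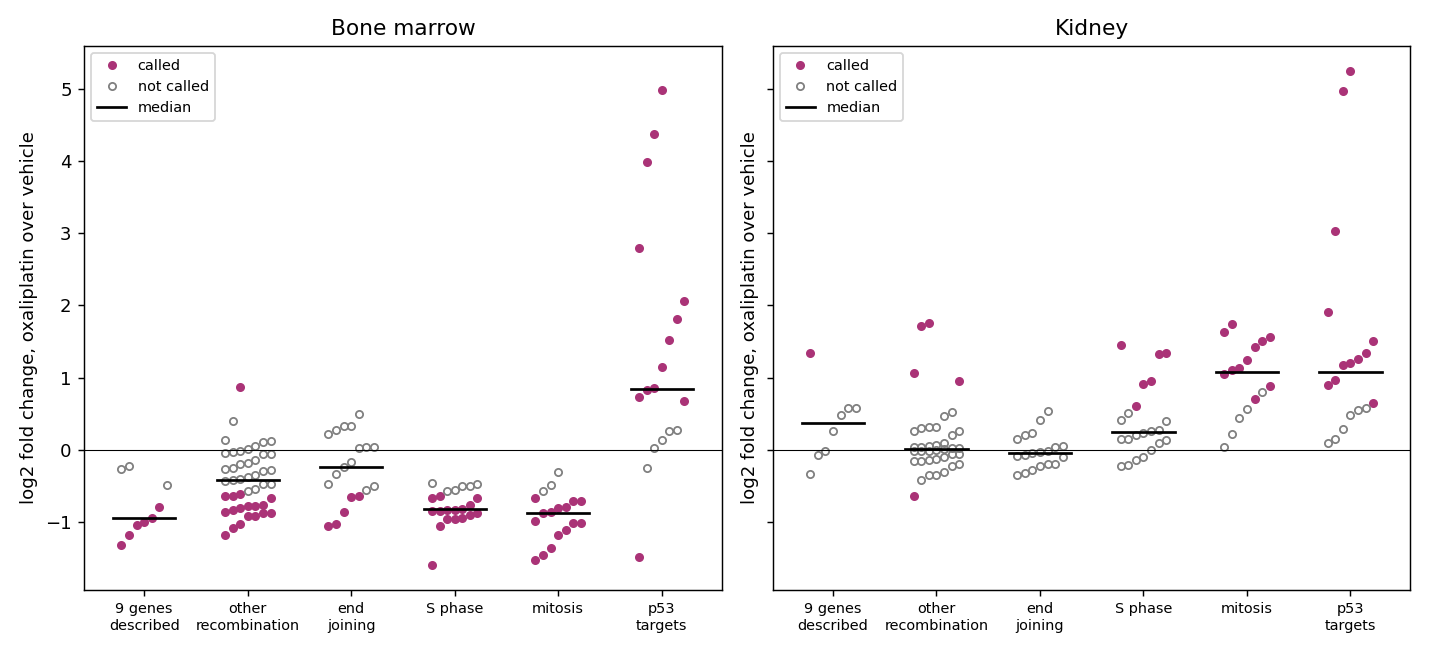
Log2 fold change of oxaliplatin over vehicle for the genes tested in 6 lists, bone marrow left and kidney right, filled where called (adjusted p under 0.05 and beyond 1.5-fold), with black lines at medians. In marrow the 9 genes (median -0.94) lie near the S phase (-0.82) and mitosis (-0.87) lists and below the other recombination genes (-0.42) and end joining genes (-0.24).

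Within groups, some of the 9 genes varied together in marrow and others did not. Over the 10 marrow libraries with each group's mean subtracted, the 36 pairs of genes had a median r of 0.15, from -0.80 for Palb2 and Xrcc3 to 0.91 for Brca1 and Rad54l, and 22 pairs were positive. Brca1, Brca2, Rad51c, Rad54l and Xrcc2, singled out after these values were seen, had r from 0.56 to 0.91 in all 10 of their pairs. In kidney the 28 pairs of the 8 genes tested had a median of -0.05, from -0.81 to 0.71. These values describe 10 libraries that share depth and composition between genes, and carry no test. The genes whose log2 CPM followed the mean of the members most closely in marrow were Pif1 (r = 0.96), which encodes a DNA helicase, Rhno1 (0.96), Blm (0.95), Atp7b (0.95) and Fcho1 (0.95). In kidney they were Pou2f1 (0.97), Pnisr (0.97), Gm17435 (0.96), Adcy1 (0.95) and 1700034I23Rik (0.95). These are the highest r among all genes tested in each tissue, picked over 10 libraries, so selection alone raises them. In kidney, where the members did not vary together, their mean is not a shared pattern.

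Genes that start next to a member on the opposite strand, looked up after the values of the members had been seen, had no calls of their own. Nbr1, which starts 194 bases from Brca1, differed by -0.38 in marrow (SE 0.08, adjusted p = 0.0024), against -1.32 for Brca1, and by -0.10 in kidney. Pomgnt1, 150 bases from Rad54l, was at 0.42 in marrow (adjusted p = 0.027) where Rad54l was at -0.94, and at -0.25 in kidney where Rad54l was at 0.48. Dctn5, 56 bases from Palb2, was at 0.03 in marrow, Tex14, 111 bases from Rad51c, at -0.06, Zfyve21, 297 bases from Xrcc3, at 0.11, and Zfyve26, 978 bases from Rad51b, at -0.31 (adjusted p = 0.049). Nbr1 and Zfyve26 thus fell with their member by less than 1.5-fold. None of these 6 neighbours was called in marrow, nor were the 5 that passed the filter in kidney.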

How the data were processed

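The authors used STAR and the mouse assembly in Ensembl release 101 for alignment and deposited raw counts per gene, made from uniquely aligned, unambiguous reads in Partek Flow; the labels name featureCounts and Salmon as well, and describe ribosomal RNA removal where the methods describe a SMARTer kit. Strand use is not given in the sources used here. Each table held 55774 lines, of which 287 repeated an identifier with identical counts and 1 lacked a value; 55486 genes remained. All per-sample columns were used.

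In edgeR 4.0.16 under R 4.3.3 (with limma 3.58.1), genes passing filterByExpr at a minimum count of 10 were scaled by TMM and compared by the two-sided quasi-likelihood test with robust dispersions. Each tissue was fitted with a treatment term alone, and the 20 libraries together with tissue, treatment and their interaction. Calls needed a p under 0.05, adjusted by Benjamini-Hochberg over the genes tested, and a change beyond 1.5-fold, and adjusted p values in the text come from this test. SE is the log2 fold change over the root of its F statistic, and log2 CPM used a prior count of 2. The steps were tested on simulated data. Positions and exon lengths came from GENCODE mouse release 21 (GRCm38).

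Named were the 9 genes; in each tissue the 5 largest called rises and falls of the other recombination genes and the 3 of end joining; of other lists the most abundant, highest and lowest genes, of which the report gives a selection; the 5 genes most like the members; and Cdkn1a. Some genes that the rule names are not reported here. The members and lists were chosen with earlier results of these data known. Alternatives were DESeq2 1.42.0, its size factors, library size alone, 2 other filters, no fold threshold, the replicate number as a block, Y-linked expression as a covariate, each library left out, and, added after seeing the data, treated marrow libraries 3 and 4 left out. Figures used Python 3.11.15 and matplotlib 3.10.9.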

Additional observations from a re-analysis of the deposited data

Results flagged for a closer look

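For 6 genes the treatment difference in kidney was higher than that in marrow by the interaction test of edgeR: Brca1 by 2.60 on the log2 scale, Brca2 by 1.70, Rad54l by 1.35, Xrcc3 by 0.75, Rad52 by 0.69 and Palb2 by 0.66, with the errors and adjusted p values given above. Among 124 groups of 5 libraries, made from the CPM of the 9 genes and the summed CPM of 22 lists, 8 held a library far from the other 4 by Dixon's criterion, where chance gives about 1 in 20 groups. Brca1 was low in vehicle marrow library 5, at 110 CPM (109.9) against 129 to 135 CPM in the others, and the mitosis sum was low in the same library, at 5685 CPM against 6726 to 7111 CPM. Rad51b was low in vehicle marrow library 4, at 8.09 CPM against 10.4 to 11.2 CPM. The sum of the other recombination genes was low in vehicle kidney library 2, at 759 CPM against 798 to 810 CPM, and the sum of the 9 genes was high in treated kidney library 5, at 39.3 CPM against 33.6 to 34.9 CPM. In vehicle kidney the proximal tubule sum was high in library 5, at 25204 CPM against 21269 to 22332 CPM, and the endothelial sum in library 2, at 199 CPM against 186 to 189 CPM. In treated marrow library 3 the sum of loop and distal tubule markers was high, at 41.9 CPM against 3.00 to 13.2 CPM. Pvalb was the most abundant gene of that list in marrow. The skeletal muscle sum was also highest in this library, at 779 CPM, and the source of these reads was not tested.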

How the results depend on the processing

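In marrow 6 of the 9 genes were called with each library left out and 6 or 7 under the other alternatives. Of 162 values of single genes, 160 kept their direction and their side of an adjusted p of 0.05, a count made without regard to fold. The exceptions were Xrcc2 without treated library 3 or without libraries 3 and 4. In kidney 119 of 135 values kept both, again without regard to fold. The number of the 9 genes called in kidney, 1, became 3 with no fold threshold or with library size alone, 2 with at least 10 counts in every library (Brca2 and Xrcc3, with 7 of the 9 genes tested and Brca1 not among them), and 1 to 3 with a library left out. Without a fold threshold the other recombination genes called numbered 28 in marrow (18 with it) and 9 in kidney (5 with it), and all genes called in kidney 5679 (2216 with it). The kidney count of other recombination genes was 2 with at least 10 counts in every library, where fewer genes are tested, and 3 with the Y-linked covariate, where the cause was not tested. In kidney the log2 difference of Palb2 turned to 0.0597 and that of Xrcc2 to 0.115 with library size alone, and that of Xrcc2 to 0.00663 with at least 10 counts; with a library left out they ranged from -0.162 to 0.0307 and from -0.0873 to 0.0215. Library size alone moved the median over all genes from -0.04 to 0.11 in marrow and from 0.02 to 0.16 in kidney, and rises among the calls from 49.6% to 63.4% and from 66.8% to 82.7%; Palb2 and Xrcc2 stayed below that median. The kidney rise of Brca2 had an adjusted p of 0.0627 with the Y-linked covariate. Deviations of same-numbered vehicle and oxaliplatin libraries correlated with r from -0.12 to 0.23 in marrow and from -0.15 to 0.08 in kidney. In each tissue 1 of 5 libraries correlated best with its own number. With 5 libraries a group, these correlations cannot show whether a number also marks a shared batch. With the replicate block 6 of the 9 genes were called in marrow and 1 in kidney, and all calls numbered 4968 and 2017. In kidney Brca2 then had an adjusted p of 0.0507 and Bard1 one of 0.0518 in the edgeR test. In the interaction test 5 to 7 of the 9 genes were called under all alternatives, with Palb2 at 0.0522 without the filter and Rad51c at 0.0355 with at least 10 counts in every library. In kidney Brca1 rested on 9 to 90 reads per library, Rad54l on 18 to 61 and Rad51b on 2 to 16, which limits the precision of their differences.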
